A study of Mus musculus with 25 samples.

Results

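SOX proteins are transcription factors that share the HMG box, a DNA-binding domain that sits in the minor groove and bends the DNA. They fall into groups by the sequence of that domain, and members of a group often stand in for each other. The 8 followed here come from 4 of these groups. Sox2 is a SoxB factor of pluripotent and neural progenitor cells. Sox4, Sox11 and Sox12 form the SoxC group, of which Sox4 is needed for the formation of islet endocrine cells. Sox5, Sox6 and Sox13 are SoxD factors, which lack a transactivation domain of their own and act with partners. Sox9, of the SoxE group, maintains the pancreatic progenitor pool and persists in the ducts of the adult organ, and in cartilage it works together with Sox5 and Sox6.

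The members were the rows of the RNA-seq tables that carry one of the 8 symbols and the ATAC-seq peaks whose nearest gene, as deposited, is one of them. This gave 9 of 24439 rows, because Sox4 has 2, and 36 of 65053 consensus peaks. The peaks numbered 9 for Sox11, 7 for Sox5, 5 each for Sox6 and Sox12, 4 each for Sox4 and Sox9, 2 for Sox13 and 0 for Sox2. Of the 36 peak centres, 15 were intergenic, 11 intronic, 6 in a UTR and 4 in a coding exon.

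αTC1 (alpha TC1 clone 6) and βTC6 (beta-TC-6) are mouse lines from islet tumors driven by SV40 T antigen, under the glucagon promoter in the first and the insulin promoter in the second. αTC1 cells make glucagon and βTC6 cells make insulin, and each line stands for its cell type as a single dividing population in its own culture medium. Untreated cells gave 3 RNA-seq and 5 ATAC-seq libraries of each line, and 9 further ATAC-seq libraries were made from the lines mixed at 10% to 90% αTC1 cells. Whether replicates came from separate cultures is not stated, so p-values measure the spread between these samples, which may be technical.

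RNA-seq libraries held 21795367 to 25876765 expected counts and pure ATAC-seq libraries 4397851 to 10374903 reads in consensus peaks. Summed over 5 alpha-cell genes, FPKM (fragments scaled to transcript length and depth) was 12354 to 14703 in αTC1 and 194 to 283 in βTC6, and over 5 beta-cell genes 13.6 to 14.9 and 25372 to 37986, as the labels have it. βTC6 also held somatostatin RNA, and the 4 delta, PP and epsilon genes summed to 238 to 349 FPKM there against 0.31 to 1.04 in αTC1. Most of that sum was Sst, at 207, 234 and 325 FPKM, and Ppy varied in βTC6, at 50.8, 3.70 and 23.4. Ghrl overlapped between the lines, and Hhex went the other way at few counts (4, 6 and 3 in αTC1 against 0, 2 and 0). Marker sums of other cell types were low. They were 3.61 to 3.73 in αTC1 against 0.17 to 0.99 in βTC6 for 4 acinar genes (3 of them at no more than 3 counts in any library), and 1.38 to 2.33 against 0.20 to 0.39 for 4 mesenchymal genes. Endothelial, immune and glial sums reached at most 0.29, 2.25 and 2.73. The part of such cells in the Sox values was not tested.

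The windows below are those of the called peaks outside the gene starts and of the downstream Sox9 peaks described with them, together with the bases before the starts of Sox9 and Sox11, the members whose start peaks were called. All are plus-strand sequence of the mm9 build, 200 bases long and clear of annotated exons. Capitals mark exact matches, on either strand, to a SOX core (ACAAAG or ACAATG), an E-box (CAGCTG), a homeodomain core (TAATTA), a forkhead core (GTAAACA) or a CCAAT box (CCAAT), and no matches overlap. The peak windows are centred on the peak.
Sox9, before the start, chr11:112643338-112643537: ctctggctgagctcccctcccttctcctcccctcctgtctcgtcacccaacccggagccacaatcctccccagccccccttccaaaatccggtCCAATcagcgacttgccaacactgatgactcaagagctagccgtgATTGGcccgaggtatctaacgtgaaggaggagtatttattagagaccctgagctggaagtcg
Sox9, peak downstream, chr11:112672797-112672996: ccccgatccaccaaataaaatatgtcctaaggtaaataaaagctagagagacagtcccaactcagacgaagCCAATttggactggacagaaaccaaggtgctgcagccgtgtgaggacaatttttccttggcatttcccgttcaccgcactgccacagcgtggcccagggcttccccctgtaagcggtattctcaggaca
Sox9, far downstream peak, chr11:112822535-112822734: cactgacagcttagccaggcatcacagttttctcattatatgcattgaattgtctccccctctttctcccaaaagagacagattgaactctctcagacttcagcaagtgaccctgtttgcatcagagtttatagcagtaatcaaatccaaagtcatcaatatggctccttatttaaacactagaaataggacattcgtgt
Sox5, intronic peak, chr6:143897342-143897541: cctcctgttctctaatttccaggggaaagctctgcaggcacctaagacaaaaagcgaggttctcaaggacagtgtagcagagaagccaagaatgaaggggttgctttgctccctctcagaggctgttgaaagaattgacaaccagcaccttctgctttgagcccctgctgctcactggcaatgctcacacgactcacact
Sox6, intronic peak, chr7:123109883-123110082: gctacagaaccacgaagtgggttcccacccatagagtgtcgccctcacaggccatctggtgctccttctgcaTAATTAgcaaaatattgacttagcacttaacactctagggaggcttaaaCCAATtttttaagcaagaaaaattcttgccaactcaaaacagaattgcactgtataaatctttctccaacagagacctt
Sox11, before the start, chr12:28027575-28027774: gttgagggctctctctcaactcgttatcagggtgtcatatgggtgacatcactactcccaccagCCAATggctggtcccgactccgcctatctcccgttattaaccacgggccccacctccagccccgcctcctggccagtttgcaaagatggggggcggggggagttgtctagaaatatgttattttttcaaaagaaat
Sox11, upstream peak, chr12:28192840-28193039: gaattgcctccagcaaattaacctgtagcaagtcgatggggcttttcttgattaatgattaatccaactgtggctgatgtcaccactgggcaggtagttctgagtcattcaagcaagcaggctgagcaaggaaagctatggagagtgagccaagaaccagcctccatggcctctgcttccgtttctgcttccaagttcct
Sox11, far upstream peak, chr12:28250980-28251179: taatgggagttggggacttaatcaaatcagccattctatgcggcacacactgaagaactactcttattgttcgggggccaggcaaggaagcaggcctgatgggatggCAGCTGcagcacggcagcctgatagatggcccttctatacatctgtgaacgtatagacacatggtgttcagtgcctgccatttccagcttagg
Of these, the Sox9 start is preceded by 2 CCAAT boxes and the Sox11 start by 1. Among 32851 windows of the same length before RefSeq gene starts (GRCm38.p6), 29.3% held a CCAAT box. No SOX core lay in the printed windows. Over the central 200 bases of all 36 Sox peaks, 6 (16.7%) held one, against 22.4% of all 65053 peaks. An E-box lay in 8 (22.2%) of the Sox peaks against 17.2% of all peaks, and TAATTA in 1 against 6.93%. These are letter matches and carry no measure of binding.

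To find which Sox genes the lines expressed, levels were compared per transcript length within each line. In αTC1, Sox12 had the highest FPKM, 21.3 ± 0.618 (SD, n = 3), followed by Sox4 at 10.4 ± 1.89, Sox5 at 8.99 ± 0.705 and Sox9 at 4.24 ± 0.186. Only Sox4 and Sox5 overlapped among these neighbours. The other 4 genes stood at 0.05 or less in every αTC1 library. In βTC6, Sox12 again led, at 9.22 ± 0.832, ahead of Sox4 at 7.51 ± 0.625 without overlap. A second tier followed there, with Sox11 at 0.857 ± 0.261 and Sox13 at 0.843 ± 0.369, which overlapped. Sox5 stood at 0.23 ± 0.03 in βTC6, and Sox9 was at 0 in all 3 libraries. Sox12 and Sox4 thus had the highest mean FPKM of the members in both lines, and the lines differed in which others were detected.

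**Figure D1:**
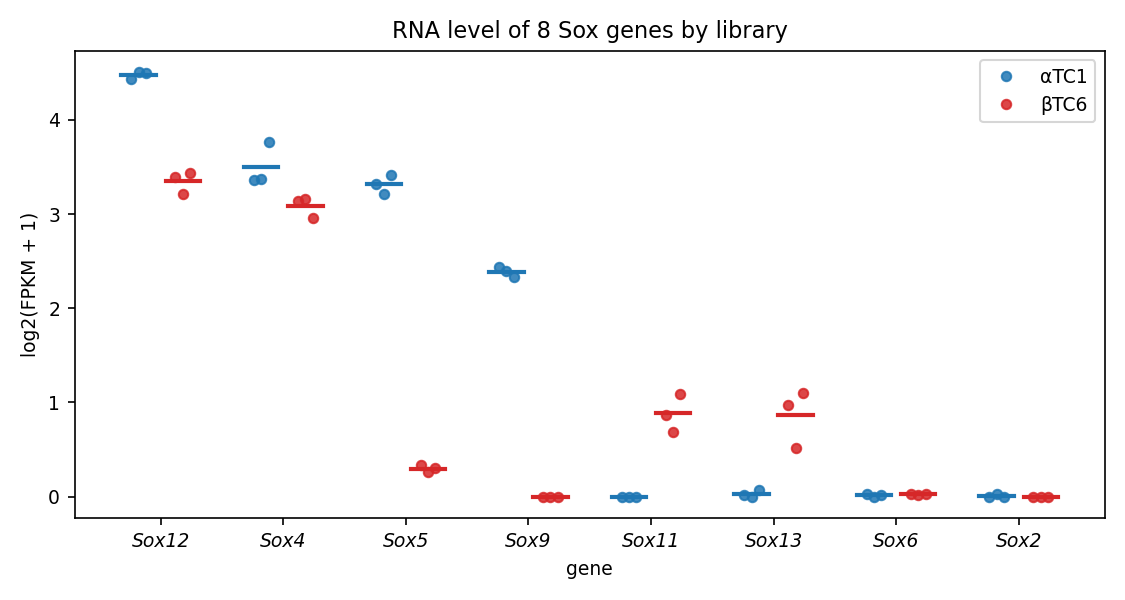
RNA level of each Sox gene as log2(FPKM + 1), one point per library (3 of αTC1 in blue, 3 of βTC6 in red), with a bar at the group mean of the plotted values. Sox5 and Sox9 are high in αTC1 alone, Sox11 and Sox13 are low and present in βTC6, and Sox6 and Sox2 lie at the bottom in both lines.

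The comparison of the lines asked which of these genes differ in RNA. Genes were tested with edgeR's quasi-likelihood test if every replicate of at least 1 line had an FPKM of 1 or more. A gene was called when its Benjamini-Hochberg FDR was under 5% and its log2 fold change, βTC6 over αTC1, lay beyond 2 in size. Sox4, Sox5, Sox9 and Sox12 passed the filter. Sox5 and Sox9 passed it through αTC1 alone, being under 1 FPKM in every βTC6 library, so the counts that follow depend on the filter. Of the 4 tested, Sox5 and Sox9 were called higher in αTC1, against 4.08% of the 12195 tested genes. Called higher in βTC6 were 0, against 10.2%. All 4 had lower levels in βTC6, so by edgeR and DESeq2 alike 0 could be called there, and 0 passed at an unadjusted p under 0.05 in that direction. Without the FPKM filter 2 were called higher in βTC6, Sox11 and Sox13, which the filter had removed.

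Sox9 had 407, 433 and 425 expected counts in the 3 αTC1 libraries, at FPKM of 4.42, 4.26 and 4.05. It had 0 counts in each βTC6 library, which allows at most 1.23e-05% of the counts in the shallowest of them, counting error only. The groups lie far apart. Set against a floor of 3 counts per βTC6 library, Sox9 was at least 145-fold higher in αTC1 (FDR = 2.77e-07). In bulk libraries fewer expressing cells and less RNA per cell cannot be told apart.

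Sox5, the SoxD partner of Sox9 in cartilage, fell with it. Its counts were 893, 973 and 1141 in αTC1 and 16, 16 and 17 in βTC6. Sox5 was therefore low but detected in every βTC6 library, with a log2 fold change of -5.97 ± 0.14 (SE), or 62.5-fold lower in βTC6 (FDR = 4.14e-09).

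Of the SoxC genes, Sox12 and Sox4 differed less than Sox5 and Sox9. Sox12 had FPKM of 20.62, 21.78 and 21.57 in αTC1 and 9.54, 8.28 and 9.85 in βTC6. It passed the FDR threshold at a log2 fold change of -1.15 ± 0.08 (FDR = 1.91e-06), 2.23-fold higher in αTC1 and under the fold threshold. Sox4 had FPKM of 9.32, 9.36 and 12.62 in αTC1 and 7.83, 7.91 and 6.79 in βTC6. αTC1 replicate 3 is the highest of the 6, and the groups do not overlap. The Sox4 difference, -0.42 ± 0.13 (FDR = 0.0188), was 1.34-fold. It narrowed to -0.26 (FDR = 0.0418) without αTC1 replicate 3, and its FDR rose to 0.0625 without βTC6 replicate 3 and to 0.492 with scaling by the ERCC spike-ins. By FDR alone, 36.0% of the tested genes were higher in αTC1. A short second Sox4 entry nested in the first, with 12.16 counts in 1 αTC1 library and under 1 in the other 5, shares its reads, so the split between the entries is uncertain.

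Sox11, Sox13, Sox6 and Sox2 failed the FPKM filter, and values for them come from a fit of all 19570 genes with at least 1 count in total. Sox11 counts were 0, 0 and 0 in αTC1 and 43, 32 and 56 in βTC6. Against the 3-count floor this is at least 14.2-fold higher in βTC6 (FDR = 7.16e-06). Sox13, a SoxD gene first known as an islet cell autoantigen, had 1, 0 and 5 counts in αTC1 and 63, 36 and 68 in βTC6, a log2 fold change of 4.63 ± 0.62 (FDR = 2.80e-05). Both genes were separated between the lines without overlap, and both stayed near 1 FPKM or below. In that fit 12.8% of genes were called higher in βTC6.

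Sox6, which has been described as a repressor of insulin transcription, had 1, 0 and 1 counts in αTC1 and 5, 1 and 2 in βTC6 (FDR = 0.210). Sox2 had a single count in αTC1 replicate 2 and 0 in the other 5 libraries. A difference in either was not detectable at this depth.

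The rest of the family was low in both lines. Of 11 further Sox genes on the list, 10 were in the table, 0 passed the FPKM filter, and 7 had no more than 3 counts in any library. Sox18, an endothelial SoxF gene, had 0 counts in αTC1 and 53, 39 and 21 in βTC6, at least 12.1-fold higher there, and was the 1 gene of the 10 called without the filter. Sox8, the SoxE relative of Sox9, had 17, 18 and 57 counts in αTC1 and 58, 47 and 56 in βTC6, and the groups overlapped in part. Mean FPKM in βTC6 was 0.913 for Sox18 and 0.81 for Sox8, near the levels of Sox11 and Sox13 there.

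Genes whose 6-library profile lay nearest to each called member, by Euclidean distance of log2(FPKM + 1), were Ednra (0.35) and Rorb (0.43) for Sox5 and AI854703 (0.16) and Tfpi (0.26) for Sox9. Ednra, an endothelin receptor, had FPKM of 9.85, 10.1 and 11.05 in αTC1 and 0.25, 0.22 and 0.14 in βTC6. Tfpi, a coagulation inhibitor, had 4.42, 5.06 and 4.14 against 0.03, 0.07 and 0.08. This measure matches level as well as contrast.

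Accessibility was compared at the 36 Sox peaks to see whether chromatin differed along with RNA. Values are TMM-normalized read counts, in which reads per peak are scaled to a common library size, and 1 read is the lowest value, so that 1 read cannot be told from 0. They were tested with limma on log2(value + 1) over 5 libraries of each line, with the same thresholds, and fold changes on this scale understate the change of low peaks. Called as more open in αTC1 were 3 peaks, 1 each of Sox5, Sox6 and Sox9, against 5.38% of all peaks. Called as more open in βTC6 were 3 peaks, all of Sox11, against 12.9% of all peaks. By FDR alone the counts were 15 and 13 of 36, against 38.1% and 39.9%. The median log2 fold change of the Sox peaks was -0.30, next to 0.00 over all peaks. Neither count stands far from its background, so the values of single peaks follow.

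**Figure D2:**
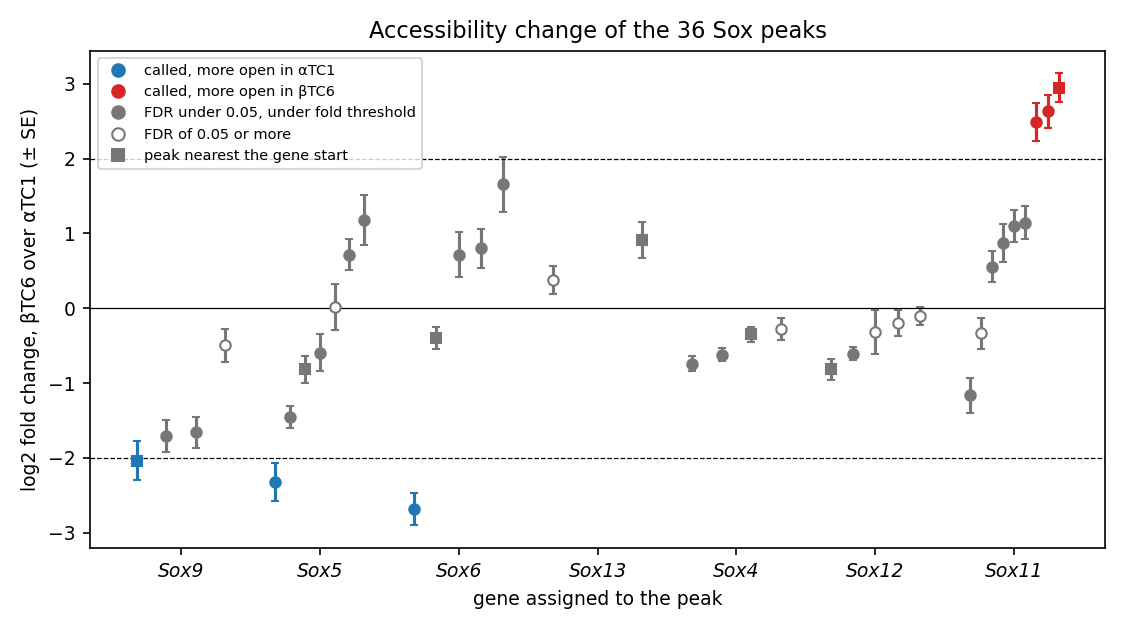
Log2 fold change of normalized reads, βTC6 over αTC1, for the 36 Sox peaks, grouped by gene and sorted within it. Bars are standard errors, dashed lines the fold threshold of 2 and squares the peaks nearest the deposited start of each gene, for Sox5 an internal one. The 4 Sox9 peaks all lie below 0, and 3 Sox11 peaks lie above 2.

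At Sox9, on chromosome 11, all 4 peaks had lower means in βTC6. The start peak (chr11:112643350-112643941, 5′ UTR at its centre) had normalized reads of 7.98, 9.41, 8.42, 10.8 and 10.4 in αTC1 and 1.85, 0.41, 2.84, 2.43 and 0.94 in βTC6. Every αTC1 library was above every βTC6 library. Its mean was 5.56 times higher in αTC1, with a log2 fold change of -2.04 ± 0.26 (FDR = 5.14e-07). That value sits at the fold threshold, and the call is lost without αTC1 replicate 4 (-1.99) or 5 (-1.9999) or βTC6 replicate 2 (-1.83) or 5 (-1.94), while the FDR stays under 5%.

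Downstream of Sox9, in intergenic DNA 29373 bases from the start, the peak chr11:112672615-112673178 had 7.003, 7.30, 9.17, 6.14 and 7.22 in αTC1 and 1.56, 1.85, 2.30, 0.86 and 1.41 in βTC6. A further one 179111 bases downstream, chr11:112822416-112822853, had 5.60, 5.76, 6.01, 3.41 and 5.92 against 0.85, 0.82, 0.81, 0.86 and 1.69. Neither pair of groups overlaps. These peaks, singled out after their values were seen, passed the FDR but not the fold threshold, at -1.71 ± 0.21 (FDR = 4.28e-07) and -1.66 ± 0.20 (FDR = 3.60e-07). Both were called by edgeR on the recovered reads, at -2.21 and -2.33. The nearest annotated starts to them were those of Gm11681, 12574 bases away, and 4933434M16Rik, 136141 bases away. The 4th peak, in a coding exon, overlapped between the lines (-0.50 ± 0.23, FDR = 0.0506). Under quantile normalization, which gives all libraries the same distribution of values, it was -1.03 (FDR = 3.54e-04).

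Sox5 spans a long stretch of chromosome 6, with 7 peaks. The 1 called lies in an intron (chr6:143897170-143897712), 833056 bases from the 5′ end of the annotated gene. By the deposited distance it is 260647 bases past an internal transcript start, and it lies 1815 bases before the start of a shorter coding transcript, Sox5-003. Its normalized reads were 12.04, 13.3, 8.87, 12.97 and 15.5 in αTC1 and 1.42, 2.87, 1.89, 0.43 and 2.44 in βTC6, and no βTC6 library reached the αTC1 range. The log2 fold change was -2.33 ± 0.25 (FDR = 6.79e-08), a 6.92-fold difference in means. A second intronic peak, 114468 bases past the same internal start and 686877 from the 5′ end of the gene (chr6:144043184-144044056), had 24.4, 26.8, 29.5, 24.4 and 29.5 against 11.1, 11.3, 6.08, 9.56 and 8.83 (-1.45 ± 0.15, FDR = 2.15e-08).

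The peak nearest the deposited Sox5 start (chr6:144157457-144158297) stayed open in βTC6. It had 22.8, 23.7, 27.5, 26.9 and 31.6 in αTC1 and 12.4, 14.2, 9.59, 14.6 and 26.0 in βTC6, where replicate 5 alone lies in the αTC1 range (-0.82 ± 0.18, FDR = 3.65e-04). Sox5 RNA thus differed 62.5-fold while this peak differed 1.73-fold in means. Of the 4 remaining Sox5 peaks, all upstream of that start, 1 had a lower and 2 a higher level in βTC6 by FDR alone, from -0.59 to 1.18, and the higher ones did not pass under quantile normalization (0.12, FDR = 0.628, and 0.69, FDR = 0.0759).

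Sox6 had RNA at the limit of detection in both lines and yet held the strongest αTC1 call among the Sox peaks. This intronic peak on chromosome 7 (chr7:123109609-123110356), 72276 bases from the 5′ end of the gene and 28617 past an internal transcript start, had 21.2, 21.2, 21.3, 16.2 and 24.8 in αTC1 and 2.41, 2.05, 4.46, 2.71 and 1.13 in βTC6. The means differed 8.21-fold, with a log2 fold change of -2.68 ± 0.22 (FDR = 9.23e-10). The Sox6 start peak (chr7:123183178-123184188) was open in both lines, at 19.5, 14.2, 14.4, 15.7 and 18.3 and 12.8, 13.95, 14.3, 10.7 and 9.48 (-0.40 ± 0.14, FDR = 0.0155).

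Another intronic Sox6 peak, chr7:122946935-122947269, leaned to βTC6 in 4 of its 5 libraries. It had 1.12, 0.14, 0.15, 0.14 and 0.87 in αTC1 and 4.40, 6.77, 5.00, 5.14 and 0.19 in βTC6. βTC6 replicate 5 lies among the αTC1 values. The log2 fold change of 1.66 ± 0.36 was not called, and without that library it was 2.14 and called. The edgeR test on the recovered reads called it with all libraries, at 3.07 (FDR = 1.09e-04). This peak was singled out after its values were seen. The 2 remaining Sox6 peaks, deeper in the gene, passed FDR alone toward βTC6, at 0.80 and 0.71, the latter at -0.12 in replicates 4 and 5 alone. Neither passed under quantile normalization (0.37, FDR = 0.198, and 0.21, FDR = 0.527).

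Sox13 had 2 peaks on chromosome 1. The start peak (chr1:135320135-135321001) had 3.78, 4.64, 3.61, 2.59 and 1.44 in αTC1 and 9.09, 5.33, 8.11, 5.42 and 5.92 in βTC6, without overlap (0.91 ± 0.24, FDR = 0.00208). Under quantile normalization it was 0.49 and did not pass (FDR = 0.0779). The intronic peak overlapped (0.37 ± 0.19, FDR = 0.0786).

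Sox11 lies on the minus strand of chromosome 12, and its start peak (chr12:28026752-28028240) had the largest change of all Sox peaks. Normalized reads were 2.94, 4.07, 1.65, 2.59 and 1.59 in αTC1 and 22.7, 22.8, 30.7, 24.7 and 28.2 in βTC6. The βTC6 libraries stood 10.0-fold higher in mean, with a log2 fold change of 2.95 ± 0.19 (FDR = 4.69e-11). Sox11 RNA, by contrast, reached no more than 1.13 FPKM in the same line.

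Upstream of Sox11 the table assigns to it 8 peaks in intergenic DNA, from 14653 to 315090 bases away. The peak 165357 bases upstream (chr12:28192500-28193379) had 0.98, 1.40, 1.65, 2.05 and 0.43 in αTC1 and 11.5, 14.8, 11.2, 13.4 and 13.4 in βTC6 (2.63 ± 0.23, FDR = 2.11e-09). The remaining called peak, 223497 bases upstream (chr12:28250774-28251385), lies beyond the 2 that the naming rule takes. It had 1.54, 1.97, 2.55, 0.68 and 0.72 against 7.95, 16.0, 12.6, 10.7 and 16.9 (2.49 ± 0.26, FDR = 3.02e-08). In both peaks every βTC6 library was above every αTC1 library. The most distant of the 8 went the other way, at 5.18, 8.29, 4.81, 4.23 and 3.32 in αTC1 and 1.56, 2.26, 1.89, 2.14 and 0.75 in βTC6 (-1.17 ± 0.24, FDR = 1.77e-04), and the nearest overlapped (-0.34 ± 0.21, FDR = 0.148, and -0.76 with FDR = 0.00300 under quantile normalization). The other 4 were higher in βTC6 by FDR alone, from 0.56 to 1.14. Of these, edgeR on the recovered reads called the peak 243779 bases upstream (2.29, FDR = 8.50e-05), and under quantile normalization those at 152837 bases (0.19, FDR = 0.403) and 303921 bases (0.41, FDR = 0.143) did not pass. Assignment to Sox11 is as deposited. In the GENCODE annotation the nearest transcript start was that of SNORA17, a small nucleolar RNA, for 7 of the 8, both called ones included, at 123729 and 65589 bases.

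The SoxC genes Sox4 and Sox12 were open in both lines. At the start peak of Sox4 (chr13:29043932-29045848), normalized reads were 75.8, 86.7, 97.8, 77.8 and 61.0 in αTC1 and 64.6, 57.8, 65.3, 63.2 and 57.9 in βTC6. The groups overlap, at -0.35 ± 0.10 (FDR = 0.00499), and quantile normalization turned the sign to 0.12. Upstream Sox4 peaks at 5528 and 21143 bases did not overlap, at -0.62 ± 0.09 (FDR = 3.00e-06) and -0.74 ± 0.10 (FDR = 8.16e-07), though the first was -0.14 under quantile normalization (FDR = 0.143). The Sox12 start peak (chr2:152223538-152224026) had 30.0, 35.1, 32.8, 31.8 and 25.1 against 23.3, 13.7, 18.9, 18.1 and 13.1 (-0.81 ± 0.14, FDR = 2.62e-05), 1.77-fold in means. Of the other 4 Sox12 peaks 1 passed the FDR threshold, the remaining Sox4 peak did not (-0.28 ± 0.14, FDR = 0.0871, and -0.46 with FDR = 0.00940 under quantile normalization), and 0 of the 9 peaks of both genes reached the fold threshold.

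**Figure D3:**
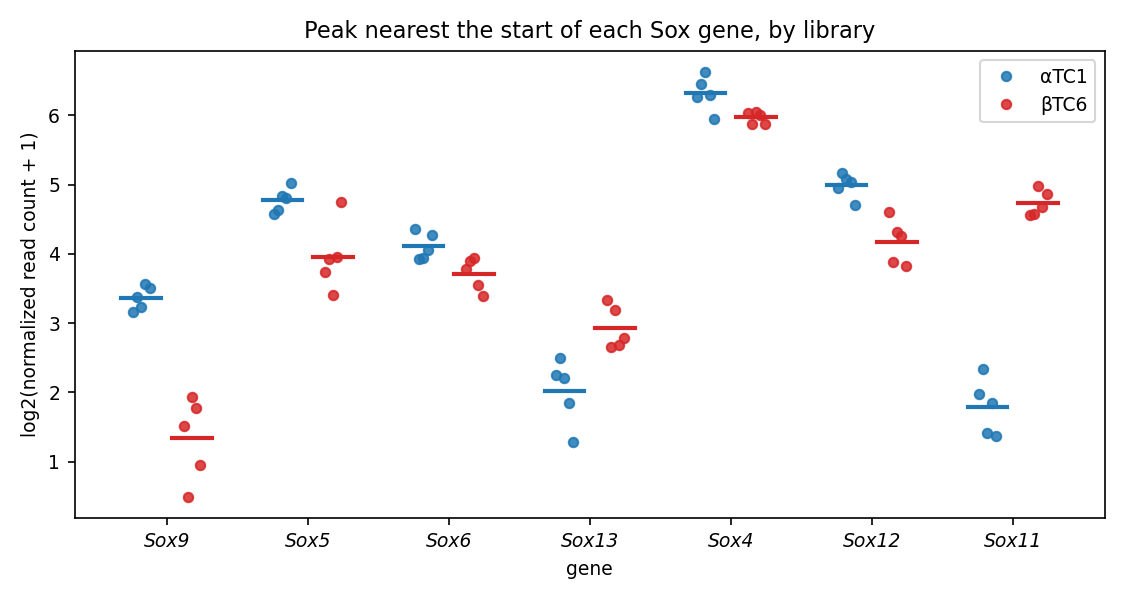
Accessibility at the peak nearest the deposited start of each of 7 Sox genes (for Sox5 an internal transcript start), as log2(normalized read count + 1), one point per library (5 of αTC1 in blue, 5 of βTC6 in red), with a bar at the group mean of the plotted values. Sox9 and Sox11 show the widest gaps, in opposite directions, and Sox4, the widest of these peaks at 1916 bases, has the highest read count in both lines, which is not scaled to width.

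Replicates 1 to 3 of each line lay closest together in their counts, at a chi-square per degree of freedom of 2.06 to 2.16 in αTC1 and 2.26 to 2.54 in βTC6. Against them, replicates 4 and 5 differed by 9.26 to 10.5 in αTC1 and 4.38 to 8.17 in βTC6, and from each other by 4.51 and 8.36, so in βTC6 they do not form a group. Mitochondrial reads of replicates 1 to 3 and of 4 and 5 were summarised in different ways by the authors, and changes were also taken within each set. The 6 called peaks kept their direction in both. For Sox9 the log2 fold change was -1.95 in replicates 1 to 3 and -2.17 in replicates 4 and 5, for Sox5 -2.03 and -2.77, and for Sox6 -2.53 and -2.91. For the Sox11 start peak it was 2.80 and 3.17, and for the upstream ones 2.52 and 2.79, and 2.09 and 3.09. The edgeR test on whole reads called 5 Sox peaks in each direction, against 8.82% of all peaks for αTC1 and 21.2% for βTC6. Quantile normalization called 5 for αTC1 and 3 for βTC6, next to 5126 and 5655 of all 65053 peaks. Over all peaks it moved the share of calls that were more open in βTC6 from 70.6% to 52.5%.

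The mixtures were read for how closely these peaks track the share of a line in a library. Each mixture is 1 library, and none of the 9 had entered the calls. They blend the same lines, however, and the peaks were chosen for differing between those lines, so a rise was largely set beforehand. The p-values, which test against no relation, are therefore no separate support for the calls. For each member, normalized reads of its called peaks were summed and related to the percentage of the line in which they were more open, with exact two-sided permutation tests over 4 relations that share the 9 libraries. Sox11, with 3 peaks, gave Pearson r = 0.977 (exact permutation p = 1.10e-05, adjusted 4.41e-05) and Spearman rho = 0.983 (exact permutation p = 4.96e-05, adjusted 1.98e-04). Without the 2 outermost mixtures r was 0.966 (exact permutation p = 7.94e-04). From 10% to 90% βTC6 cells the sums were 8.33, 11.3, 17.0, 18.2, 30.7, 30.5, 34.3, 47.8 and 54.9. The sum exceeded the highest pure αTC1 library (7.44) in all 9 mixtures, the one with 10% βTC6 cells included.

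The single Sox6 peak gave r = 0.978 (exact permutation p = 3.31e-05, adjusted 6.61e-05) and rho = 0.967 (exact permutation p = 1.65e-04, adjusted 3.31e-04), and r = 0.956 (exact permutation p = 0.00238) without the outermost 2. From 10% to 90% αTC1 cells it read 4.30, 8.35, 13.9, 12.04, 15.9, 18.2, 22.7, 22.2 and 26.6. Its value at 30% αTC1 cells was above that at 40%, and otherwise the order broke only between 70% and 80%.

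Sox5 and Sox9 followed more loosely. Sox5 read 3.36, 8.35, 7.73, 6.77, 12.1, 8.89, 17.0, 10.4 and 16.9 from 10% to 90% αTC1 cells, with r = 0.815 (exact permutation p = 0.00782, adjusted 0.0104) and rho = 0.817 (exact permutation p = 0.0108, adjusted 0.0144). Summed over all 7 Sox5 peaks, r was 0.492 (exact permutation p = 0.182). Sox9 read 1.88, 4.25, 4.37, 11.1, 5.70, 5.83, 9.38, 9.72 and 9.96, with r = 0.761 (exact permutation p = 0.0220, adjusted 0.0220) and rho = 0.750 (exact permutation p = 0.0255, adjusted 0.0255). The Sox9 value at 40% αTC1 cells is the highest of all its mixtures. Without the 2 outermost mixtures r fell to 0.594 for Sox5 (exact permutation p = 0.157) and 0.583 for Sox9 (exact permutation p = 0.165), so neither passed the test without those libraries. Without the 40% mixture, left out after its value was seen, r for Sox9 was 0.959 over 8 mixtures (exact permutation p = 5.46e-04) and 0.917 over the 6 inner ones (exact permutation p = 0.0139).

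Values were set against a straight line between the pure means. The median ratio of observed to expected was 1.47 for Sox5, above 1 in 9 of 9 mixtures, and 1.34 for Sox6, above 1 in 8. It was 1.15 for Sox9, above 1 in 7, and 0.91 for Sox11, above 1 in 3. With replicates 4 and 5 alone as pure libraries the medians were 1.30, 1.42, 1.03 and 0.90. With 1 library per mixture these ratios have no replicate check.

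**Figure D4:**
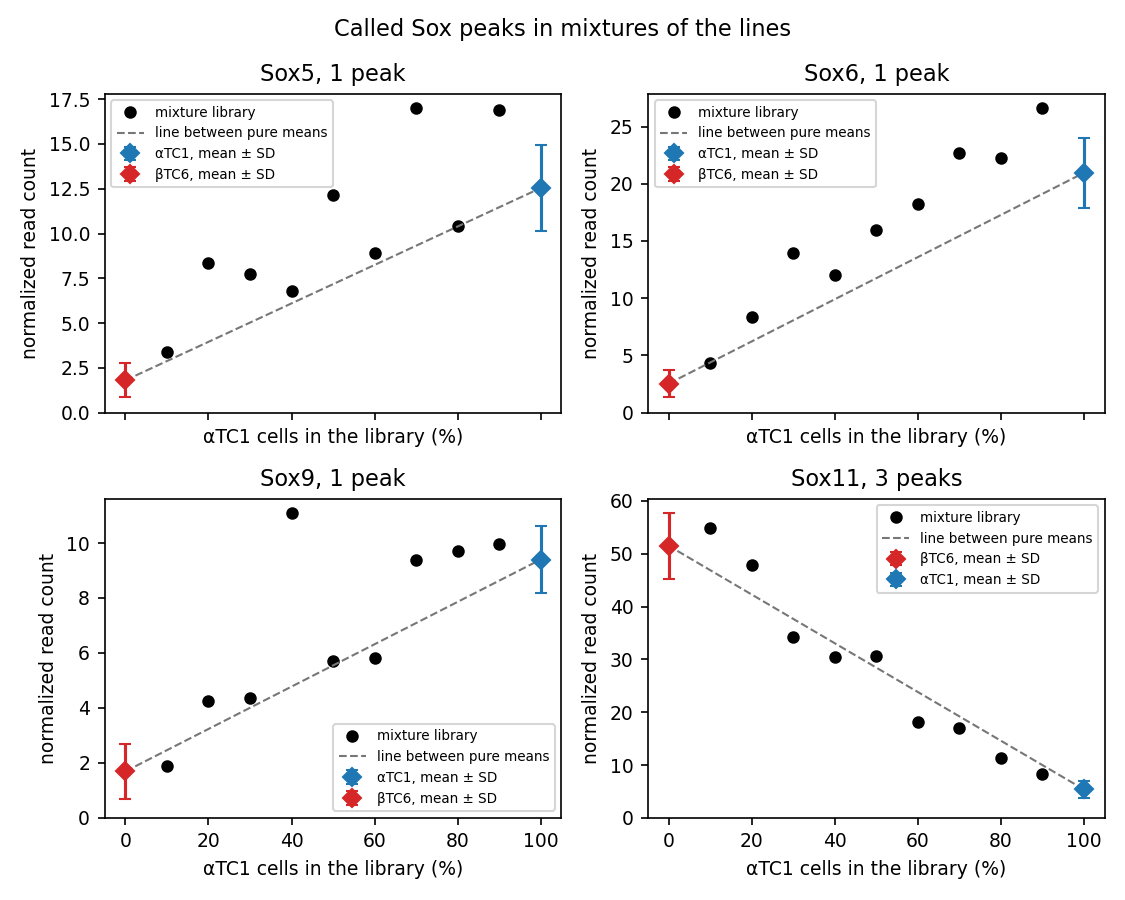
Summed normalized reads of the called Sox peaks (1 each of Sox5, Sox6 and Sox9, 3 of Sox11) against the percentage of αTC1 cells in the library. Black points are the 9 mixtures, diamonds the means of 5 pure libraries of each line with SD, and the dashed line joins those means. Sox6 and Sox11 run close to monotone, and Sox9 has 1 high point at 40%.

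Genes known to act downstream of or beside the Sox factors were taken as lists. Among 11 cartilage genes that Sox9, Sox5 and Sox6 activate in chondrocytes, 5 were tested, of which 2 were called higher in αTC1 and 2 in βTC6, next to 4.08% and 10.2% of all tested genes. Their median log2 fold change was 1.2, against 0.01 over all genes. Every called gene of this list passed the FPKM filter only through the line where it was higher, so these counts depend on the filter. The αTC1 calls were Col11a2, a chain of fibrillar type XI collagen (FPKM 12.5, 12.57 and 9.07 against 0.93, 0.25 and 0.41, log2 fold change -4.79 ± 0.19), and Hapln1, a link protein of cartilage matrix (3.73, 3.58 and 3.99 against 0.47, 0.42 and 0.31, -3.17 ± 0.18). The βTC6 calls were Col11a1, another chain of it (0.07, 0.10 and 0.22 against 1.95, 1.8 and 1.31, 4.33 ± 0.42), and Col9a2, at least 38.7-fold higher there. Col11a1 and Col11a2 thus lay on opposite sides. Col2a1 and Acan, the best known Sox9 targets, were at 0.12 FPKM or less in every library.

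Among the 11 genes of pancreatic progenitors and ducts reported here, 6 were tested, with a median log2 fold change of 2.52 against 0.01 over all genes. Called higher in αTC1 were 0 and in βTC6 3, beside the same 4.08% and 10.2%. The latter were Epcam, an epithelial adhesion protein listed at 0 counts in αTC1 and at least 180-fold higher in βTC6, Krt7, a duct keratin (1.33, 1.46 and 1.46 against 49.9, 26.7 and 30.6, 4.22 ± 0.20), and Fgfr2, the receptor for mesenchymal FGF10 (2.04, 2.61 and 1.92 against 17.7, 21.6 and 12.01, 3.04 ± 0.22). Hes1, the Notch effector of progenitors, passed FDR alone at -1.23 ± 0.19, and Prom1, a surface glycoprotein of progenitor cells, did so toward βTC6 at 1.997 ± 0.24, just under the fold threshold. Neurog3, the endocrine progenitor factor, had 1 count over all 6 libraries together. Of the called genes of this list, Epcam passed the FPKM filter through βTC6 alone.

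Among 10 partners and targets of Sox2, Sox4 and Sox11, 4 were tested, with a median log2 fold change of 1.41 against 0.01, and 1 was called in each direction, beside 4.08% and 10.2% of all tested genes. Pou3f4, a POU factor of alpha cells, was called higher in αTC1 (48.1, 53.1 and 50.4 FPKM against 0.43, 0.43 and 0.38, -6.85 ± 0.13). Dcx, a microtubule protein of young neurons, was called higher in βTC6 (1.63, 1.67 and 2.70 against 23.9, 30.6 and 17.9, 3.88 ± 0.23). Pou3f4 passed the FPKM filter through αTC1 alone. Tubb3, a Sox11 target in neurons, and Pax6 passed FDR alone toward βTC6, at 1.24 ± 0.10 and 1.57 ± 0.10. Adjusted p-values of these 9 called genes, by edgeR over all genes, were at most 1.54e-05.

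**Figure D5:**
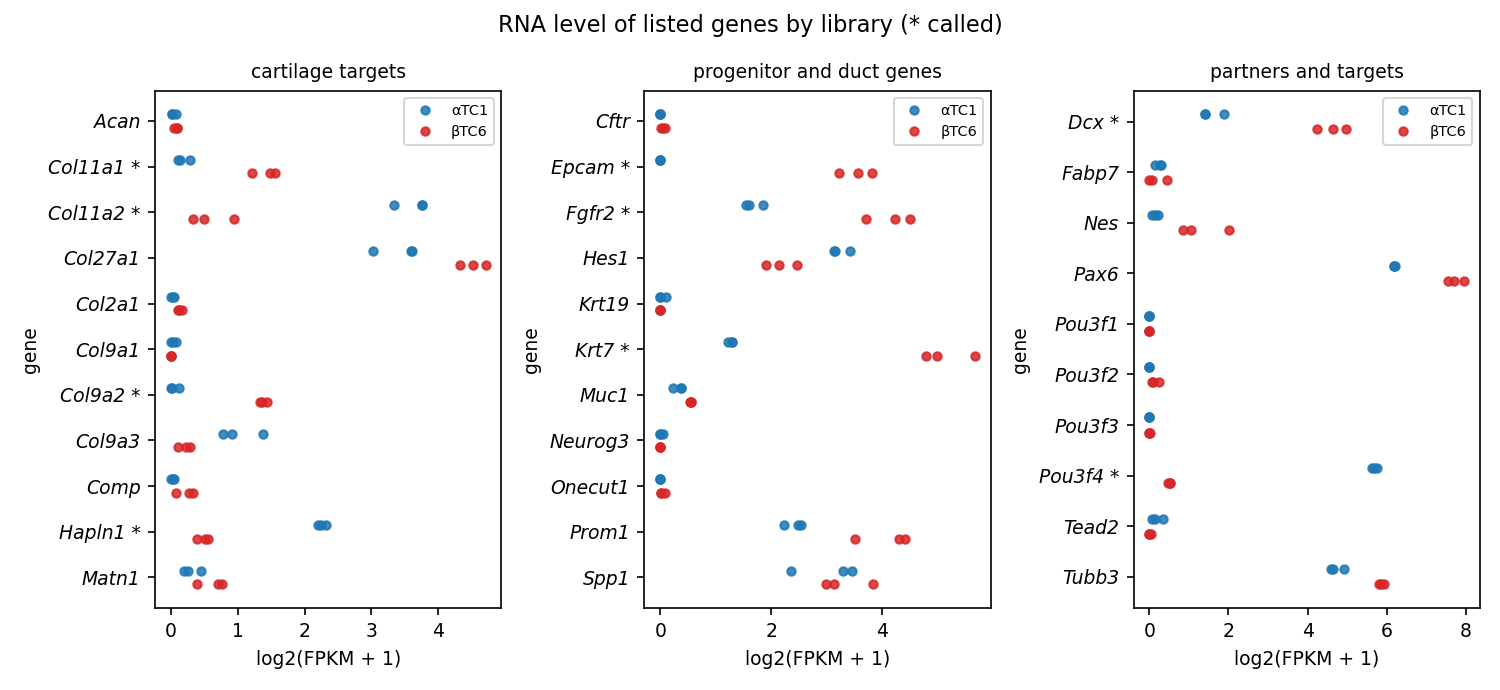
RNA level of the listed genes as log2(FPKM + 1), one point per library (3 of αTC1 in blue, 3 of βTC6 in red), in 3 panels for cartilage targets, progenitor and duct genes, and partners and targets of Sox2, Sox4 and Sox11. Asterisks mark the 9 called genes, 3 higher in αTC1 and 6 in βTC6.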

How the data were processed

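RNA-seq was measured in 3 libraries of each line and ATAC-seq in 5 libraries of each line and 9 mixtures. For RNA-seq the authors trimmed reads (Trim Galore), aligned them to mm9 (Bowtie 2) and deposited expected counts per gene from RSEM with Ensembl transcripts. The FPKM values were deposited from the same run. The study's methods give a stranded library kit and RSEM run at its defaults, and name no strand setting. For ATAC-seq the deposited signal is a read count per consensus peak that the authors scaled by TMM after trimming, BWA alignment to mm9, duplicate removal and peak calling with MACS. Dividing each library by its lowest value gave whole reads for 100% of values (within 0.01 reads). No column of sample values was left unmapped (0).

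Expected counts were rounded and tested with edgeR 4.0.16 (TMM), and DESeq2 1.42.0 served as an alternative. ATAC-seq values were tested with limma 3.58.1 with trend, in R 4.3.3, with a pseudocount of 1. In the study's methods edgeR was used for both assays, after RNA-seq counts had been normalized on the ERCC spike-ins with RUVSeq. RUVSeq was not run here, and scaling by the spike-in totals is an alternative. Since the ATAC-seq table holds scaled values, edgeR on the recovered reads is given as an alternative. Each test was first checked on artificial tables with known changes. For genes, the SE was obtained as the size of the log2 fold change over the root of edgeR's F. A floor of 3 counts gave lower bounds of folds. The remaining steps used Python 3.11.15 and scipy 1.17.1.

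The 8 members and the gene lists were chosen with earlier results of these data known, and 1 listed gene is not reported here. Named were all members, up to 4 called genes of each list, and for each member the peak nearest its start and up to 2 called peaks in each direction. Peaks outside this rule are said to be so or were described to account for all members. Features were read from GENCODE vM1 on mm9. In the αTC1 RNA-seq libraries, replicates 1 and 2 differed least (chi-square per degree of freedom 2.10, against 19.0 or more for other pairs) but beyond sampling noise, and were kept as 2 samples.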

Additional observations from a re-analysis of the deposited data

Results flagged for a closer look

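Over the 36 Sox peaks and both lines, 72 groups of 5 libraries were examined for a sample far from the others, and 5 were marked, where chance gives about 3.6. The peak 5528 bases upstream of Sox4 had its lowest βTC6 value, 55.6, in replicate 2, against 69.6 to 73.2 in the other 4. The peak 21143 bases upstream of Sox4 had its highest αTC1 value, 87.1, in replicate 5, against 65.3 to 67.5. At the intronic Sox6 peak chr7:122759184-122759510, 422911 bases from the 5′ end of the gene, αTC1 replicate 4 read 2.87, against 1.26 to 1.55. At the Sox9 peak 179111 bases downstream, αTC1 replicate 4 read 3.41, against 5.60 to 6.01, and βTC6 replicate 5 read 1.69, against 0.81 to 0.86. In recovered reads the Sox6 value was 21 against 9 to 11, and the Sox9 values were 25 against 40 to 41 and 18 against 4 to 6. The cause was not tested.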

How the results depend on the processing

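The 2 Sox genes called higher in αTC1 were called under every RNA-seq alternative run, and without the fold threshold the count was 4. The count called higher in βTC6 was 0 except without the FPKM filter, where it was 2 (Sox11 and Sox13). Summing both Sox4 entries, chosen after seeing the data, left it uncalled. Of the 3 peaks called in each direction, a pseudocount of 5 left 0 for αTC1 and 1 for βTC6, since it shrinks low peaks. Over all 65053 peaks it called 819 and 1668, against 3502 and 8409 in the main setting. Quantile normalization gave 5 for αTC1 (5126 over all peaks), edgeR on the recovered reads 5 and 5, and dropping the fold threshold 15 and 13. Leaving out 1 library gave 2 to 3 and 3 to 4. The replicate block gave 2 and 0 genes and 3 and 3 peaks and changed no call. Same-numbered samples shared little deviation (r from -0.002 to 0.069 for ATAC-seq and -0.040 to 0.025 for RNA-seq). For αTC1 replicates 1, 4 and 5 in ATAC-seq and 2 in RNA-seq, the βTC6 sample of the same number correlated best. Whether the numbers pair samples is not settled by these values. The mixture relation of Sox5 was r = 0.594 without the 2 outermost mixtures and 0.492 over all its peaks, and that of Sox9 0.583 without the outermost. With the 40% mixture also left out, chosen after seeing the data, these were 0.573 for Sox5 and 0.917 for Sox9. Signs turned at 5 uncalled peaks. Under quantile normalization this was the Sox4 start peak (0.12), the Sox12 peak 8184 bases upstream (0.19, and 0.091 in replicates 1 to 3) and the intronic Sox5 peak 99793 bases before the deposited start (-0.54). The last was also -0.00087 with a pseudocount of 0.5, -0.55 in replicates 1 to 3 and -0.26 to 0.22 on leaving out 1 library. The Sox12 peak 804 bases into the gene was -0.53 to 0.0090 on leaving out 1 library, the latter without βTC6 replicate 5, and the Sox6 peak 422911 bases into the gene was -0.12 in replicates 4 and 5. The cause of these changes was not tested. Depth limits Sox2 and Sox6 RNA, at no more than 5 counts in a library, and peaks of a few reads.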
